A study of Homo sapiens with 6 samples.

Results

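The plasminogen activation system was examined in LX2 cells, an established human line with the features of activated hepatic stellate cells, which lay down matrix in the liver. The 8 genes were taken by symbol from the 58243 gene identifiers measured. They encode the plasminogen activators PLAT and PLAU, the urokinase receptor PLAUR, the serpin inhibitors SERPINE2 and SERPINB2, and the plasminogen receptors ANXA2, S100A10 and PLGRKT. The set does not hold every inhibitor of the activators. Total RNA was sequenced 48 h after transfection with siAURKA, small interfering RNA against the transcript of the mitotic kinase Aurora A, or with siNC, a control small interfering RNA. There were 3 libraries in each of the 2 groups. All 6 libraries came from the same line, labelled wild type in siNC and AURKA knockdown in siAURKA. The labels name neither the small interfering RNA sequences nor separate cultures behind the replicates. The spread behind every p-value here is therefore that between libraries and may be technical. In fits that include the replicate number, it is the spread between libraries left after that number.

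Plasminogen is a circulating zymogen made mainly by hepatocytes. Tissue-type activator (tPA, from PLAT) and urokinase (uPA, from PLAU) cleave it to plasmin, a protease that dissolves fibrin and acts on matrix proteins. The receptor uPAR (PLAUR) holds urokinase on the cell surface, and plasminogen itself docks on receptors such as annexin A2, its partner S100A10 and PLGRKT. Serpins trap the activators in inactive complexes. Stellate cells are a known source of several of these proteins in injured liver.

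PLAT was the member that separated the groups, with every siAURKA library below every siNC library, as for 2.52% of tested genes. The main test, edgeR without a block, did not call PLAT or any other gene. Only DESeq2 with the replicate number as a block called PLAT, among the 1.31% of tested genes that it called. The other 7 members overlapped between the groups and were called by none of the fits. PLAT, PLAU, PLAUR and PLGRKT stood lower in all 3 same-numbered pairs, as did 17.6% of tested genes. For 7 of the 8 genes, all but PLAT, over 50% of the spread went with the replicate number, as it did for 74.4% of tested genes.

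AURKA, the targeted gene, was at 135.7, 127.9 and 94.9 CPM (counts of a gene per 1000000 counts of the scaled library) in siNC libraries 1, 2 and 3, and at 49.8, 47.0 and 51.0 CPM in the siAURKA libraries, so the groups did not overlap. The main edgeR test gave AURKA a log2 fold change of -1.28 (SE 0.28) but an adjusted p of 0.9999, and did not call it. DESeq2 called AURKA without the block (adjusted p = 0.0314) and with it (adjusted p = 1.4e-06). An edgeR adjusted p of 0.9999 is thus no sign here that a level was unchanged. Deposited totals ran from 23366242 to 53357402 units per library, which is 5841560 to 13339350 fragments if 1 fragment is worth 4 units. The siNC library numbered 2 had the smallest total and the highest count-weighted mean GC content, 53.3% against 49.2% to 52.2% in the other 5 libraries. GC content followed the replicate number in siNC and siAURKA alike: 49.2% and 49.4% for number 1, 53.3% and 52.2% for number 2, and 51.5% and 51.1% for number 3. In both groups the total was smallest in number 2 and largest in number 1. Differences between numbers and those of depth and GC content cannot be told apart here. The stellate and mesenchymal markers VIM (6882 CPM in siNC), COL1A1 (1531 CPM) and TIMP1 (543 CPM) were the most abundant along with SPARC (785.5 CPM). PDGFRB stood at 36.3 CPM, and markers of activation or of mesenchymal cells that were low included ACTA2 (13.4 CPM), COL1A2 (4.35 CPM), RGS5 (3.94 CPM) and PDGFRA (0.567 CPM). DES stood at 0.473 CPM and LRAT, a marker of quiescent stellate cells, at 0.0159 CPM. Of 9 hepatocyte markers 5 were listed at 0 in every library (ALB, APOA2, APOB, TTR and FGB), and the summed level of the list was at most 1.36 CPM. Summed levels in siNC and siAURKA were 11.1 to 16.2 and 12.8 to 18.2 CPM for 8 endothelial markers and 16.9 to 36.7 and 13.4 to 27.2 CPM for 8 macrophage and leukocyte markers. For 6 cholangiocyte markers they were 48.7 to 97.8 and 41.5 to 62.6 CPM, most of it SOX9.

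Promoter letters are shown for PLAUR and SERPINB2, as those members with an AP-1 motif that had their highest levels in the 2 libraries numbered 2. PLAU and PLGRKT had the same pattern of levels, and their windows held no such motif. The RefSeq table (GRCh38.p14) held windows for 7 of the 8 genes, all but PLAT, and the 250 bases before each start were searched on both strands. Capitals mark TGANTCA, a relaxed form of the AP-1 motif with any base (N) in the middle, which is the form counted here. The match was TGAGTCA in PLAUR and TGAATCA in SERPINB2.

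PLAUR, chr19:43670170-43670419, minus strand: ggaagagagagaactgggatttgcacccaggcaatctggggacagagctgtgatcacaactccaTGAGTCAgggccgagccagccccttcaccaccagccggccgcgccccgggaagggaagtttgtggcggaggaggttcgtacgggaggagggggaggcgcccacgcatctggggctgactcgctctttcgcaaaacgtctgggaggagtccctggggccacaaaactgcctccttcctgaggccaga

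SERPINB2, chr18:63887455-63887704, plus strand: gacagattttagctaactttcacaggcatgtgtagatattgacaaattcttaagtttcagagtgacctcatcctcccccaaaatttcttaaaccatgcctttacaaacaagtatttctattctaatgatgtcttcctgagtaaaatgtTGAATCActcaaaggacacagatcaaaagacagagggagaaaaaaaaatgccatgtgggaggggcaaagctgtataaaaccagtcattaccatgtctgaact

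The motif began 186 bases before the PLAUR start and 102 bases before that of SERPINB2. ANXA2 held it too, 127 bases before its start. Of all 35114 windows of this length, 6.57% held it. The letters TATAAA were found in the windows of SERPINB2, 30 bases before the start, and of ANXA2, 31 bases before it, against 10.7% of all windows. TGACNTCA, a motif like the cyclic AMP response element, was found in SERPINB2 alone among these genes and in 6.87% of all windows. The GC box GGGCGG was found for S100A10, SERPINE2, ANXA2 and 1 of the 2 PLAU starts, against 42.6% of all windows. These matches are descriptions of the letters, not of factor binding.

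Levels were first compared between genes per kilobase of exonic length, which counts every annotated exon and so understates genes with long rarely used exons. In siNC the receptor pair was the most abundant, ANXA2 at 418.8 ± 111.9 CPM per kb and S100A10 at 383 ± 125.4 CPM per kb (mean ± SD, n = 3). These neighbours were not separated, with ANXA2 the higher in 2 of 3 siNC libraries. Both stood above PLAT, at 75.4 ± 18.7 CPM per kb, which in turn stood above PLAU, at 15.2 ± 2.67 CPM per kb, with no overlap of the libraries at either step.

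PLAUR followed at 14.3 ± 7.68, SERPINE2 at 10.4 ± 2.10, PLGRKT at 5.89 ± 3.29 and SERPINB2 at 4.43 ± 5.52 CPM per kb in siNC. From PLAU down to SERPINB2 each gene overlapped the next in siNC. The order of the 8 genes was the same in siAURKA, where SERPINE2 (8.92 ± 2.47 CPM per kb) and PLGRKT (4.32 ± 1.57 CPM per kb) did not overlap.

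**Figure D1:**
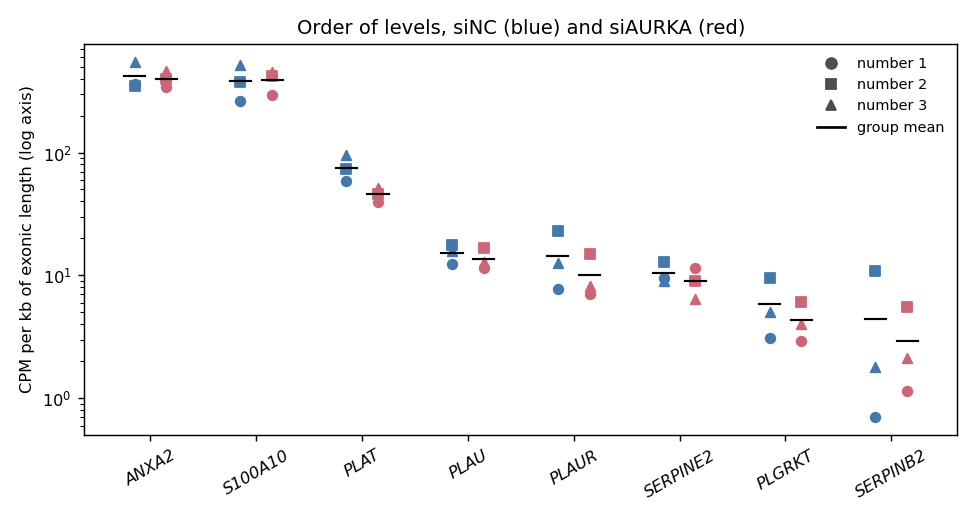
Level of each gene in CPM per kilobase of exonic length (log axis) in the 3 siNC (blue) and 3 siAURKA (red) libraries, with marker shapes for the replicate numbers and black bars for group means. ANXA2 and S100A10 lead, PLAT stands alone below them, and SERPINB2 has the widest spread.

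The transcript of tissue plasminogen activator stood lower in the siAURKA libraries, though the main test did not call it. Levels here and below are of RNA, and no protein was measured. PLAT, on chromosome 8 (minus strand, 42175233 to 42207724) (GRCh38), was at 384.7, 482.6 and 630.3 CPM in siNC libraries 1, 2 and 3. In siAURKA it was at 264, 306 and 341 CPM. The lowest siNC library stood above the highest siAURKA library, and the siAURKA values lay closer together. Means were 499 ± 123.6 and 303.7 ± 38.7 CPM (SD, n = 3), a ratio of 0.609, and the log2 differences within pairs 1, 2 and 3 were -0.54, -0.66 and -0.88, on the log2(CPM + 0.5) scale used for all pair differences here. In bulk RNA, less transcript per cell and fewer cells with the transcript cannot be told apart.

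Of 18775 tested genes, 2.52% were lower in siAURKA with no overlap between the groups, and PLAT was 1 of 8 members to be so. The edgeR quasi-likelihood test gave PLAT a log2 fold change of -0.72 (SE 0.29), with an adjusted p of 0.9999 after the Benjamini-Hochberg method (unadjusted, 0.0408). At an adjusted p of 0.05 edgeR called 0% of the tested genes, members included. Unadjusted p-values under 0.05 were found for 237 genes, or 1.26%, and PLAT was the sole member among them. Where there is no effect, a calibrated test puts a share of about 0.05 under this threshold, and 1.26% is less. The fit without a block leaves in its error the spread between replicate numbers, 75.01% of the total for the median tested gene. Its p-values and SEs can therefore be too large, here and for the members below, and its non-calls do not show unchanged levels. For PLAT the two-sided exact permutation p was 0.1, and no split of 3 and 3 libraries can give a smaller one. With the replicate number as a block, edgeR gave PLAT -0.69 (SE 0.12, adjusted p = 0.549). DESeq2 without a block called 0.0905% of tested genes and no member. With the block it called PLAT, at -0.71 (SE 0.17, adjusted p = 0.00415), among the 1.31% of tested genes that it called. Without both libraries numbered 2 DESeq2 with the block again called PLAT (adjusted p = 0.00625), but it did not without those numbered 1 (0.124) or 3 (0.861). The fold change kept its direction in each of these fits.

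**Figure D2:**
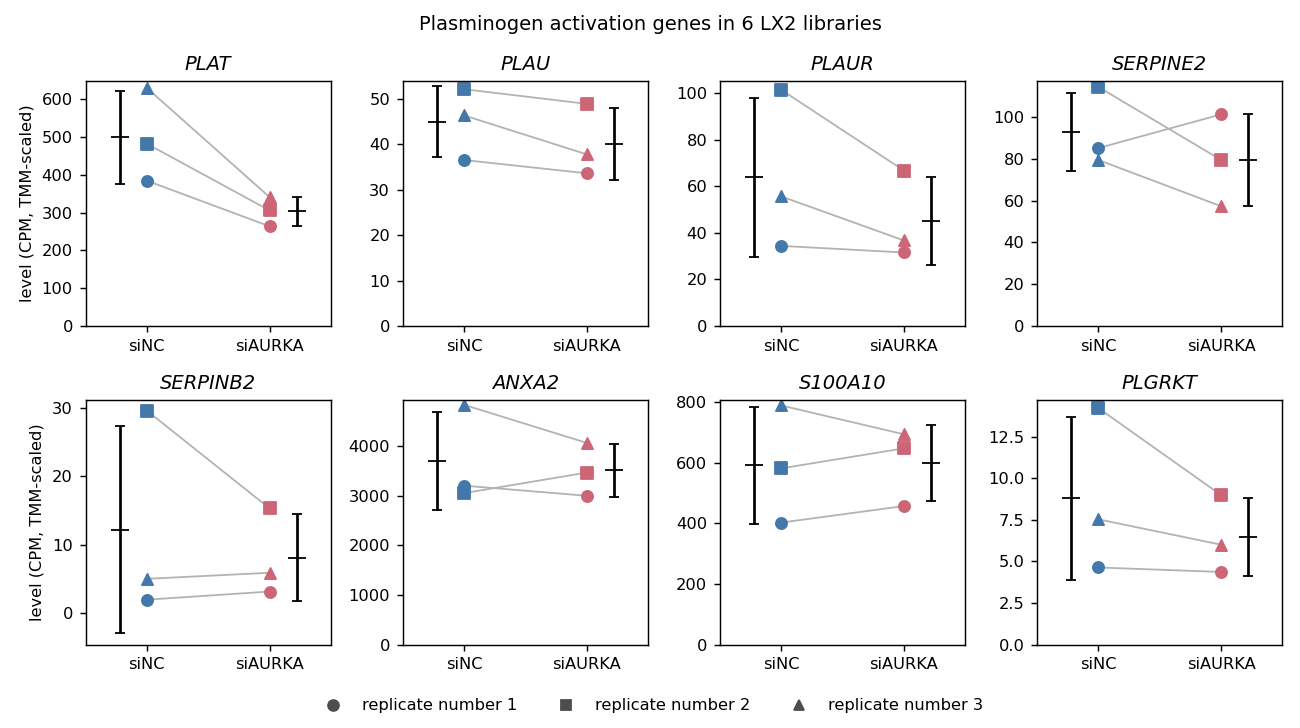
TMM-scaled level in CPM (linear axis) of each of the 8 genes in siNC (blue) and siAURKA (red), with grey lines joining same-numbered libraries and black bars for mean ± SD (n = 3). PLAT is the gene whose groups do not overlap, and for PLAU, PLAUR, SERPINB2 and PLGRKT both libraries numbered 2 (squares) are the highest of their groups.

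Urokinase itself differed little between the groups. PLAU, on chromosome 10 (plus strand, 73909177 to 73917497), was at 36.5, 52.1 and 46.3 CPM in siNC and at 33.6, 48.8 and 37.7 CPM in siAURKA. Each siAURKA library was below its same-numbered siNC library, while the groups as a whole overlapped widely. The log2 fold change was -0.17 (SE 0.30, adjusted p = 0.9999 by edgeR), and pair differences were -0.12, -0.09 and -0.29. Antisense to PLAU lies C10orf55, which shares 916 of its 2950 exonic bases and was counted at 1.51 to 3.25 CPM. Whether strand was used in counting is not known, so reads of these genes may be split between them.

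The urokinase receptor stood lower in siAURKA within pairs, but its spread over replicate numbers was wider. PLAUR, on chromosome 19 (minus strand, 43646095 to 43670547), was at 34.4, 101.5 and 55.7 CPM in siNC and at 31.6, 66.8 and 36.8 CPM in siAURKA. The libraries numbered 2 were the highest of both groups, and number 1 the lowest. Pair differences were -0.12, -0.60 and -0.59 on the log2 scale. The edgeR log2 fold change was -0.50 (SE 0.48), and the adjusted p was 0.9999 (unadjusted, 0.327). With the replicate block it was -0.44 (SE 0.16) with an adjusted p of 0.576 (unadjusted, 0.0364). Unadjusted edgeR p-values under 0.05 with the block were found for 8.48% of tested genes. Without siNC replicate 2 the edgeR value was 0.001. That library's depth and GC content are given above, and their part in this result was not tested. Here and below, fold changes without 1 library are from edgeR fits without a block. Those fits keep the same-numbered library of the other group, so genes high or low in that number shift with it.

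Of the serpins, SERPINE2, which encodes protease nexin 1, an inhibitor of thrombin, urokinase and tPA, went in different directions within pairs. SERPINE2, on chromosome 2 (minus strand, 223975112 to 224039319), was at 85.1, 114.3 and 79.4 CPM in siNC and at 101.2, 79.4 and 57.3 CPM in siAURKA. It was higher after siAURKA in pair 1 (0.25) and lower in pairs 2 (-0.52) and 3 (-0.47). The edgeR log2 fold change was -0.23 (SE 0.32, adjusted p = 0.9999), with values from -0.45 to -0.04 when 1 library was left out.

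SERPINB2, which encodes plasminogen activator inhibitor 2, a serpin that stays largely inside the cell, had the widest spread of the 8 genes. It lies on chromosome 18 (plus strand, 63871692 to 63903890). Levels were 1.92, 29.6 and 4.98 CPM in siNC and 3.12, 15.3 and 5.87 CPM in siAURKA, from deposited values of 83 units in the lowest library to 621 in the highest. Both libraries numbered 2 stood far above the others, whatever the transfection. The mean was lower in siAURKA, yet 2 of 3 pairs were higher, with log2 differences of 0.58, -0.93 and 0.22. The edgeR value was -0.58 (SE 0.997, adjusted p = 0.9999), against -0.02 (SE 0.37) with the replicate block and 1.23 without siNC replicate 2. SERPINB2 shares 547 exonic bases with SERPINB10 on the same strand, which was listed at 0 in every library.

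The receptor complex of annexin A2 and S100A10 did not separate the groups. ANXA2, on chromosome 15 (minus strand, 60347134 to 60402883), encodes a membrane-binding protein that assembles plasminogen and tPA at the cell surface. It was at 3202, 3051 and 4832 CPM in siNC and at 2998, 3466 and 4064 CPM in siAURKA, highest in the libraries numbered 3. Its log2 fold change was -0.07 (SE 0.29, adjusted p = 0.9999 by edgeR). The processed copy ANXA2P2 was counted at 6.70 to 13.6 CPM, at most 0.284% of the ANXA2 level, and how reads common to both were assigned is not given.

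S100A10, on chromosome 1 (minus strand, 151982915 to 151994390), encodes the small partner of annexin A2, whose carboxyl-terminal lysine binds plasminogen. Its levels were 402.5, 581.5 and 789 CPM in siNC and 457, 648 and 694 CPM in siAURKA, again highest in number 3 and lowest in number 1. The log2 fold change was 0.02 (SE 0.34, adjusted p = 0.9999 by edgeR), which was the sole value above 0 among the 8. Without 1 library it ran from -0.19 to 0.29, and that of ANXA2 from -0.20 to 0.17.

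PLGRKT, which encodes a transmembrane plasminogen receptor with a carboxyl-terminal lysine, lies on chromosome 9 (minus strand, 5357973 to 5437878). It was at 4.63, 14.2 and 7.53 CPM in siNC and at 4.36, 8.98 and 6.001 CPM in siAURKA. As for PLAUR, number 2 was the highest and number 1 the lowest in both groups, and all 3 pairs were lower after siAURKA, by -0.08, -0.63 and -0.30. The log2 fold change was -0.44 (SE 0.50, adjusted p = 0.9999 by edgeR), and 0.09 without siNC replicate 2.

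**Figure D3:**
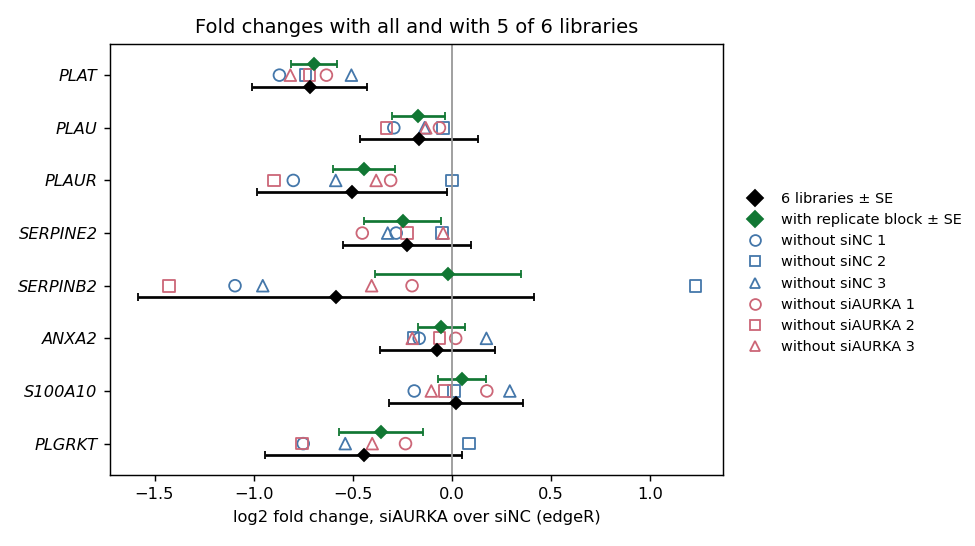
edgeR log2 fold changes (siAURKA over siNC) of the 8 genes from all 6 libraries (black, ± SE), with the replicate block (green, ± SE) and with each library left out in turn (open symbols). PLAT stays between -0.87 and -0.51, whereas SERPINB2 runs from -1.43 to 1.23.

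As a set, 7 of the 8 members had an edgeR log2 fold change below 0, where 51.5% of all tested genes did. The members' median was -0.34, beside -0.01 over all tested genes. PLAT, PLAU, PLAUR and PLGRKT, 4 of 8, were lower in all 3 pairs, compared with 17.6% of tested genes, and none was higher in all 3, compared with 17.9%. The members share the same 6 libraries, so these counts do not add up as independent evidence. They were also chosen with earlier results of these data known, so the shares of all tested genes are not a fair background. Without siNC replicate 2 alone, in the fit without a block, PLAUR, SERPINB2 and PLGRKT were no longer below 0. That fit keeps the high siAURKA library of the same number. Without both libraries numbered 2, DESeq2 with the block gave -0.36 for PLAUR, -0.21 for PLGRKT and 0.46 for SERPINB2, none of them called.

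The spread of each gene over the 6 libraries was divided into shares for the replicate number, the treatment and the rest, from the sums of squares of log2(CPM + 0.5). The number took over 50% of the sum of squares for 7 of the 8 genes, as it did for 74.4% of all tested genes, so this share is near the background. It was 93.3% for S100A10, 93.2% for SERPINB2, 86.2% for PLGRKT, 85.6% for ANXA2, 83.5% for PLAU, 82.9% for PLAUR and 52.4% for SERPINE2. PLAT was the exception, with 69.2% for the treatment and 27.9% for the number. The treatment took over 50% for 6.67% of tested genes, and its median share was 6.81%.

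The 8 genes did not follow the numbers in the same way. PLAU, PLAUR, SERPINE2, SERPINB2 and PLGRKT were highest on average in the libraries numbered 2, as were 33.4% of tested genes. PLAT, ANXA2 and S100A10 were highest in number 3, as were 25.5%. Number 1 was the lowest for 7 of the 8 genes, all but SERPINE2, compared with 39.9% of tested genes. Between the highest and the lowest number, mean levels differed 7.37-fold for SERPINB2, 2.47-fold for PLAUR, 2.37-fold for PLGRKT and 1.73-fold for S100A10. The other 4 genes differed 1.41-fold to 1.46-fold.

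**Figure D4:**
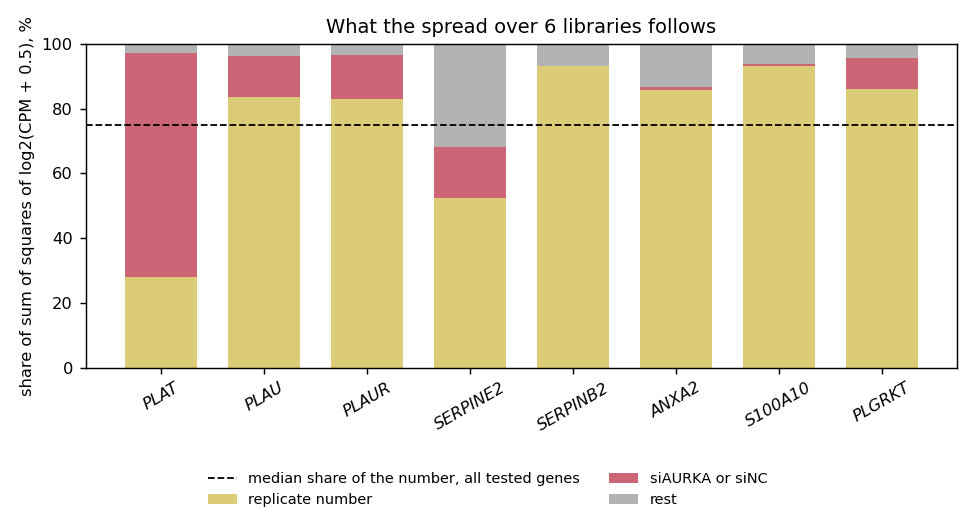
Share in percent of the sum of squares of log2(CPM + 0.5) over 6 libraries that goes with the replicate number (yellow), the treatment (red) and the rest (grey) for each gene. The dashed line is the median share of the number over all tested genes, 75.01%, and PLAT is the gene with most of its spread in the treatment.

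Ratios between members within a library do not depend on library scaling, apart from the offset of 0.5 CPM. The log2 ratio of PLAT to its inhibitor SERPINE2 was 2.41 ± 0.50 in siNC and 1.96 ± 0.59 in siAURKA (SD, n = 3). It was lower in 3 of 3 pairs, but the groups overlapped and the two-sided exact permutation test gave p = 0.4. This test and those below shuffle all 6 libraries and ignore the pairs, so they do not measure the differences within pairs. The ratio of receptor to urokinase, PLAUR to PLAU, was 0.38 ± 0.53 and 0.11 ± 0.30, with p = 0.6 by the exact permutation test. It too was lower in 3 of 3 pairs, and it was highest in siNC replicate 2 at 0.96. PLAU to SERPINE2 was -1.04 ± 0.23 and -0.96 ± 0.54 (lower in 1 of 3 pairs, exact permutation p = 0.8). S100A10 to ANXA2 was -2.66 ± 0.30 and -2.56 ± 0.15 (lower in 1 of 3 pairs, exact permutation p = 0.7). The last pair kept a narrower range, from -2.99 to -2.39, than PLAT to SERPINE2, from 1.38 to 2.98.

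Other genes of the pathway were read from 6 lists, with 97 tested genes in all. These lists too were chosen with earlier results of these data known. edgeR called 0 of them, with and without the replicate block, and 1 had an unadjusted p under 0.05 without it. DESeq2 with the block called 3, all lower in siAURKA (KRT18, ITGA3 and SERPINB9), where it called 0.81% of tested genes in that direction. Without both libraries numbered 1 it called 0 list genes and 122 of all 18548 genes tested. Without number 2 it called 5 list genes and 279 of all 19574 genes tested. The 5 were KRT18, ITGA3 and KRT8 as lower and MMP1, an interstitial collagenase, and TFPI2, an inhibitor of plasmin, as higher. MMP1 was at 22.8, 502.4 and 23.1 CPM in siNC and at 89.5, 287.5 and 62.9 CPM in siAURKA, and TFPI2 at 95.4, 1028 and 119.7 CPM and at 179.7, 708.6 and 218.9 CPM. Both genes were higher after siAURKA in pairs 1 and 3 and lower in pair 2. Without number 3 DESeq2 with the block called 1 list gene, A2M as higher, and 61 of all 19189 genes tested. MMP1 and TFPI2 were named after their values were seen.

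Of plasminogen, its binding proteins and other inhibitors of plasmin, 11 of 16 were tested, with a median log2 fold change of -0.17 (7 below 0 and 4 above). Plasminogen itself (PLG) was listed at 0 in every library, as were CPB2 and HRG. So were all 37 mitochondrially located genes, and a 0 in this table need not mean that a transcript was absent. KRT18, an epithelial keratin, went from 312.7 ± 86.9 CPM (siNC) to 210.1 ± 75.9 CPM (siAURKA, n = 3), below its partner library in 3 of 3 pairs, with -0.57 by edgeR and an adjusted p of 0.0166 by DESeq2 with the block. KRT8, its partner keratin and a reported plasminogen-binding protein, was at 551.9 ± 139.5 and 406.5 ± 128.7 CPM, also lower in 3 pairs (-0.44). A2M, a broad protease inhibitor, was at 1.38 ± 1.11 and 4.64 ± 5.46 CPM (1.76), and at 0.18 without siAURKA replicate 2.

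Among partners and clearance receptors of uPAR, 18 of 21 were tested, and 17 had a value below 0, with a median of -0.25, where 51.5% of all tested genes were below 0. Without siNC replicate 2, in the fit that keeps siAURKA replicate 2, those below 0 were 13. ITGA3, the integrin alpha 3 chain, had means of 663 ± 219.7 CPM (siNC) and 445.9 ± 143.5 CPM (siAURKA, n = 3) and 3 of 3 pairs were lower, with -0.57 by edgeR and an adjusted p of 0.0107 by DESeq2 with the block. Its edgeR value was -0.28 without siNC replicate 2, with siAURKA replicate 2 kept. DESeq2 with the block still called ITGA3 without both libraries numbered 2 (adjusted p = 0.0246). It did not without those numbered 1 (0.424) or 3 (0.965). ITGB5, an integrin beta chain that binds vitronectin, had -0.45 and vitronectin itself (VTN) -0.64. Of this list, 7 members were lower and 0 higher in all 3 pairs, beside 17.6% and 17.9% of tested genes.

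Of 20 other serpins 12 were tested, and the median was 0.01, with 6 below 0 and 6 above. SERPINB9, an intracellular inhibitor of granzyme B, was at 13.9, 13.6 and 11.5 CPM in siNC and at 8.13, 8.39 and 5.36 CPM in siAURKA. It was thus lower without overlap, as were 2.52% of tested genes. Its edgeR log2 fold change was -0.83 with an adjusted p of 0.9999 (unadjusted, 0.0342), and DESeq2 with the block gave an adjusted p of 0.0364. DESeq2 with the block did not call SERPINB9 without both libraries numbered 1 (adjusted p = 0.685), 2 (0.1555) or 3 (0.9999). SERPINF1 had 0.64, and SERPINC1, the gene of antithrombin, had 1.54 at 0.356 and 1.07 CPM, close to the floor of 0.514 CPM that 12 units make in the shallowest library.

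All 16 annexins, S100 proteins and AHNAK proteins were tested, with a median of -0.07 (10 below 0 and 6 above). ANXA5, a phospholipid-binding annexin, averaged 410.5 ± 46.0 CPM (siNC) and 287 ± 37.2 CPM (siAURKA, n = 3). It was lower in 3 of 3 pairs, at -0.52 by edgeR (adjusted p = 0.9999) and an adjusted p of 0.053 by DESeq2 with the block. ANXA4 was higher in 3 of 3 pairs (0.48), at 28.9 ± 3.004 and 40.3 ± 3.998 CPM, and so was ANXA1 (0.67, or 0.23 without siNC replicate 2). The groups did not overlap for ANXA5 and ANXA4, while those of ANXA1 did. Among tested genes, 2.52% were lower and 3.33% higher in siAURKA without overlap.

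Of 22 plasmin substrates and downstream proteases 16 were tested, with a median of -0.10 (9 below 0 and 7 above). The fibrinogen chains FGA, FGB and FGG were listed at 0 in every library. VEGFA had -0.86 (-0.09 without siNC replicate 2), thrombospondin 1 (THBS1) had -0.65 (0.04 without siNC replicate 1), and LTBP1, which binds latent TGF-beta, had 0.56. None of these was called by edgeR or by DESeq2 with the block. The values in brackets are from fits that kept the siAURKA library of the same number.

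All 24 transcription factors that act on activator and serpin promoters were tested, with a median of -0.09 (17 below 0 and 7 above). JUNB, an AP-1 subunit, was at 41.1, 165.5 and 59.7 CPM in siNC and at 31.7, 85.5 and 44.9 CPM in siAURKA. It was highest in the libraries numbered 2 of both groups, and 33.4% of tested genes were highest on average in that number. A link between JUNB and the members was not tested. The edgeR value of JUNB was -0.72, and 0.10 without siNC replicate 2 but with siAURKA replicate 2 kept. JUNB was lower after siAURKA in 3 of 3 pairs. FOSL2, another AP-1 subunit, had -0.45 but was highest in number 1, with 260.9 CPM in siNC against 203 CPM in siAURKA. ATF3 had -0.56, and none of these factors was called by edgeR or by DESeq2 with the block.

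The genes most like 4 of the members over the 6 libraries were found among 9899 protein-coding genes with a mean of at least 10 CPM, by the root mean square difference of centred log2 levels. Nearest to PLAT were DUSP14 (0.118), ASPHD2 (0.124) and APOL3 (0.138), where the median of all candidates was 0.562. DUSP14, a dual-specificity phosphatase gene, was at 65.1, 89.3 and 96.3 CPM in siNC and at 42.3, 56.4 and 65.2 CPM in siAURKA. Nearest to PLAUR were CDC34 (0.073), KDELR1 (0.075) and PRKD2 (0.075), all highest in the libraries numbered 2. PLAU was nearest to MEPCE (0.034), ASIC1 (0.050) and ERGIC1 (0.053), and SERPINE2 to RAB6B (0.069), HPS4 (0.084) and TLDC1 (0.114). The nearest of so many genes over 6 libraries will be close in any case, so these are descriptions.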

How the data were processed

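The authors deposited 1 table of whole numbers for 58243 Ensembl identifiers in 6 libraries, read here as unscaled estimated counts. HISAT2 and the build GRCh38 are named per the submitters' processing notes. Which tool counted reads, with what annotation and strand setting, is not given in the sources used here. Among the deposited estimated counts, 30.3% to 34.0% of values from 1 to 24 were multiples of 4, where equal frequencies give 25%. Most of these values were not multiples of 4, so a worth of 4 units per fragment is an assumption that the excess does not establish. Depths in fragments and the floor of 3 fragments (12 units) rest on that assumption, and the floor covers counting error only. Symbols, positions and exonic lengths came from GENCODE release 29, which matched 57980 identifiers.

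Values were rounded, which altered nothing. Genes passing filterByExpr (18775, all 8 members among them) were tested with edgeR's quasi-likelihood F-test (TMM scaling, no covariates, Benjamini-Hochberg adjusted p of 0.05). SE is the log2 fold change divided by the square root of F. Alternatives used DESeq2, limma-voom, a replicate block, other scalings, other filters and libraries left out. The fits were also run on simulated data that held no effect of the replicate number. That run cannot show how the fit without a block behaves on these libraries. Same-numbered libraries deviated together from their group means, with correlations of 0.775, 0.605 and 0.433 over tested genes, against -0.639 to 0.098 for other combinations. The numbers were therefore taken to pair the libraries, from the data and not the labels. Deviations within a group cancel out, which lowers the other combinations.

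Members and lists were chosen with earlier results of these data known. All 8 members are named, with AURKA, the 3 members of each list with the smallest edgeR p (under 50% of exonic bases shared with other genes), and the 3 genes of most like pattern for each of PLAT, PLAU, PLAUR and SERPINE2. Other genes were named after their values were seen. Fits ran in edgeR 4.0.16, DESeq2 1.42.0 and limma 3.58.1 under R 4.3.3, and the rest in Python 3.11.15 with numpy 2.4.6, pandas 2.3.3 and matplotlib 3.10.9.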

Additional observations from a re-analysis of the deposited data

How the results depend on the processing

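Of 160 recomputed member fold changes, 145 kept their direction and call, 13 reversed and 2, both of PLAT, became calls. edgeR called 0 genes with every scaling, filter and unit tried and with the replicate block, and 0 to 2 when 1 library was left out, never a member or a list gene. DESeq2 called 17 genes (0 members), and with the replicate block 246 (1 member, PLAT at -0.71, and 3 list genes). DESeq2 with the replicate block was also run without both libraries numbered 1, 2 or 3, chosen after seeing the data. It called 122 of 18548, 279 of 19574 and 61 of 19189 tested genes. Of these, 0, 1 (PLAT at -0.72) and 0 were members and 0, 5 and 1 were list genes. Limma-voom called 0 with and without the block. The block changed no other member's call.

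Leaving out 1 library moved the log2 fold change of SERPINB2 from -1.43 to 1.23, PLAUR from -0.90 to 0.001, PLGRKT from -0.76 to 0.087, ANXA2 from -0.20 to 0.17 and S100A10 from -0.19 to 0.29, and that of PLAU from -0.33 to -0.045. SERPINB2 was also at 0.075 with limma-voom and at 0.461 by DESeq2 with the block without number 2. In the latter fit S100A10 was at -0.003, without number 1 at -0.035, and ANXA2 was at 0.015 without number 3. Differences in log2 ratio ran from -0.10 to 0.39 for PLAU over SERPINE2, from -0.50 to 0.017 for PLAUR over PLAU, from -0.058 to 0.24 for S100A10 over ANXA2 and from -0.75 to -0.16 for PLAT over SERPINE2. The cause of these reversals was not tested beyond the libraries left out. With 3 libraries a group, SERPINB2 and PLGRKT, the members of lowest depth, are the least precisely measured.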
